A study of Mus musculus with 2 samples.

Results

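Mef2a, Mef2c, Mef2d, Srf and Myf6 encode transcription factors of the muscle gene programme, and they were chosen by symbol alone from the 26100 genes that the gene lists of both libraries shared. All 5 were found, and their levels and the share of cells with a count are described in cultured mouse embryonic fibroblasts (MEF) and in 4 classes of induced myogenic progenitor cells (iMPC). The classes were set by the UMI counts of 4 other genes. UMIs are molecule tags, so each counts 1 captured RNA molecule.

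The study profiled 1 library of each kind with droplet 3′ single-cell RNA-seq. Cells of both carried the genotype Tg:Pax7-nGFP/C57BL6;DBA2, a Pax7 reporter that marks cells expressing this stem cell factor with nuclear green fluorescence. The iMPC were derived from MEF by MyoD together with a treatment that the labels abbreviate F/R/C, and were kept in F/R/C medium. The series design speaks of a stable iMPC clone. The MEF were kept in MEF media. With 1 library a group there is no replicate check, and library, culture and cell type cannot be told apart between MEF and iMPC. No test was made, and every interval is a 95% interval for counting error only.

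MEF2A, MEF2C and MEF2D are MADS-box proteins that bind A/T-rich sites in muscle gene promoters and act with the myogenic factors MYOD and MYOG during differentiation. SRF, a MADS-box protein of a related branch, binds CArG boxes in actin, contractile and immediate early genes, and its output depends on cofactors that sense actin and growth signals. MYF6, also called MRF4, is a basic helix-loop-helix factor of the MYOD family, which binds E-boxes and is known for its high level in mature myofibres.

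Promoter sequences are shown for Mef2c, which spanned the widest range of levels among the MEF2 genes, and for Mef2a and Srf, whose windows held a match to the MADS-box motif of their own family. Windows came from RefSeq on GRCm38.p6, 4 of the 5 members matched there with 6 windows, and each was searched on both strands from 250 bases before to 50 bases after the start. The printed letters end 20 bases after the start. Capitals mark E-boxes (CANNTG) in Mef2c, the MEF2 site in Mef2a and the CArG boxes in Srf.
Mef2c, chr13:83503784-83504053, plus strand: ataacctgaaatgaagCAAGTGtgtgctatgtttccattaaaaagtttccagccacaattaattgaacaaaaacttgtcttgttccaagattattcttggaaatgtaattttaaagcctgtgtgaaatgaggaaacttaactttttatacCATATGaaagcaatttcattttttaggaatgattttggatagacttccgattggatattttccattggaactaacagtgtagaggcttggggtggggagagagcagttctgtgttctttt
Mef2a, chr7:67372839-67373108, minus strand: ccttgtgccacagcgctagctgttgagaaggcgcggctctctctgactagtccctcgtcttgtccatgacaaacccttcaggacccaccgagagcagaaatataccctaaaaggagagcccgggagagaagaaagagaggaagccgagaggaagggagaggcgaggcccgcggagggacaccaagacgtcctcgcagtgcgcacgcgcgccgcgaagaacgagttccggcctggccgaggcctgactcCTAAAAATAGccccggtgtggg
Srf, chr17:46556143-46556412, minus strand: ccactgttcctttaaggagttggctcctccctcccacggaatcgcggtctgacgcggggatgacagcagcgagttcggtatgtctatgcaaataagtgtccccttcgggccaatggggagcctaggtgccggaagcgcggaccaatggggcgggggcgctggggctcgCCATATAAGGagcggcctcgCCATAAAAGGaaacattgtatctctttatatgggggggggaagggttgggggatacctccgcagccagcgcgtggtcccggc
In Srf the capitals are CCATATAAGG at -82 to -73 and CCATAAAAGG at -62 to -53, counted from the start as 1. In Mef2a the capitals are CTAAAAATAG at -2 to 8. In Mef2c the E-boxes are CAAGTG at -234 to -229 and CATATG at -100 to -95, and the matches of the 3 motifs did not overlap in these windows. A CArG box was found in 1.63% of 32851 promoter windows, a MEF2 site in 3.19% and an E-box in 72.3%. No Mef2c window held a CArG box or MEF2 site, and neither did the Mef2d window. Another Mef2c window, not printed, held an E-box, CAGATG at -245 to -240. These matches describe the letters only.

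In the GENCODE annotation of GRCm38, Mef2a lies on the minus strand of chromosome 7 from 67231163 to 67372858, Mef2c on the plus strand of chromosome 13 from 83504034 to 83667080, and Mef2d on the plus strand of chromosome 3 from 88142372 to 88172086. Srf lies on the minus strand of chromosome 17 from 46548329 to 46556175. Myf6 lies on the minus strand of chromosome 10 from 107492853 to 107494737, with 6718 bases between it and Myf5, another gene of the MYOD family on the same strand.

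After removal of cells with over 20% mitochondrial UMIs, 6043 MEF and 9349 iMPC were kept, the iMPC at 8036 UMIs or more. Pax7-positive cells (at least 1 Pax7 UMI and 0 Myog UMIs) numbered 2180, Myog-high cells (at least 5 Myog and at most 1 Ckm) 1724, Ckm-high cells (at least 5 Ckm) 1037 and Dcn-high cells (at least 5 Dcn) 553. A further 4001 iMPC (42.8%) met no class, and 146 met more than 1, of which all were Dcn-high as well. Median UMIs per cell ran from 18064 in Dcn-high to 42148 in Ckm-high cells, with 18929 in MEF. The libraries shared 16 cell barcodes. MEF carried all 8 fibroblast markers at 10 CPM or more (6016 CPM summed, where CPM is UMIs of a gene per 1000000 UMIs of the set), with Ckm, Myf5 and Fgfr4 at 0. Fibroblast markers summed to 2918 CPM in Dcn-high cells and to 67.7 to 565 CPM in the other iMPC classes. Myocyte markers summed to 96.0 CPM in MEF, 924 in Pax7-positive, 13860 in Myog-high and 48350 in Ckm-high cells, and to 4350 in Dcn-high cells. Endothelial markers stayed at or below 0.657 CPM summed in every set, and immune markers at or below 5.59, with Adgre1 and Tyrobp at 0. Neuron markers summed to 49.2 CPM in MEF and to 64.2 to 249 CPM in the iMPC classes, mostly from Stmn2 and Tubb3. Smooth muscle and pericyte markers summed to 6294 CPM in MEF and to 364 to 840 CPM in the iMPC classes, mostly from Acta2. Glial markers summed to 13.0 CPM in Dcn-high cells and to at most 2.14 in the other sets. Their part in the results was not tested.

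Mef2c had the widest range of the MEF2 genes. Its level was 11.6 CPM in MEF, 63.0 in Pax7-positive, 628 in Myog-high, 1241 in Ckm-high and 148 in Dcn-high cells. Neighbours in the order of levels did not overlap. The Dcn-high level rests in large part on 18 cells that were Ckm-high as well, and was 77.7 CPM in Dcn-high cells of no other class. Per cell, Mef2c gave 0.227 UMIs in MEF, 1.27 in Pax7-positive, 16.8 in Myog-high and 58.2 in Ckm-high cells, which also held the most UMIs in all. With every cell thinned to 5000 UMIs, 98.4% of Ckm-high cells had a Mef2c UMI, against 73.4% of Myog-high, 22.7% of Pax7-positive, 19.4% of Dcn-high and 5.24% of MEF cells. The unthinned shares were 100%, 91.2%, 54.1%, 42.3% and 17.8% in that order. The Pax7-positive and Dcn-high thinned intervals (20.9% to 24.5% and 16.1% to 22.9%) overlapped.

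Mef2a, the most abundant MEF2 transcript of MEF, peaked in a different class. It stood at 64.3 CPM in MEF, 86.4 in Pax7-positive, 432 in Myog-high, 271 in Ckm-high and 93.0 in Dcn-high cells. Only the Dcn-high and Pax7-positive intervals overlapped among its neighbours. Relative to all UMIs the level was therefore lower in Ckm-high than in Myog-high cells. Counted per cell it was not, at 12.7 UMIs in Ckm-high and 11.6 in Myog-high cells, the former being the deeper cells. The thinned share was 25.1% of MEF, 32.8% of Pax7-positive, 82.4% of Myog-high, 67.3% of Ckm-high and 29.8% of Dcn-high cells, and unthinned it was 60.4%, 72.1%, 98.8%, 98.2% and 63.5%.

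Mef2d, the broadly expressed member of the family, varied least among the MEF2 genes. Its levels were 30.7 CPM in MEF, 24.3 in Pax7-positive, 49.1 in Myog-high, 73.1 in Ckm-high and 30.4 in Dcn-high cells. MEF and Dcn-high cells overlapped, and the other neighbours did not. The thinned share of cells lay between 11.9% and 30.0%. Mef2b, the remaining gene of the family, gave 3 UMIs in MEF and 99 in all kept iMPC, under the 1 CPM minimum used below.

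**Figure D1:**
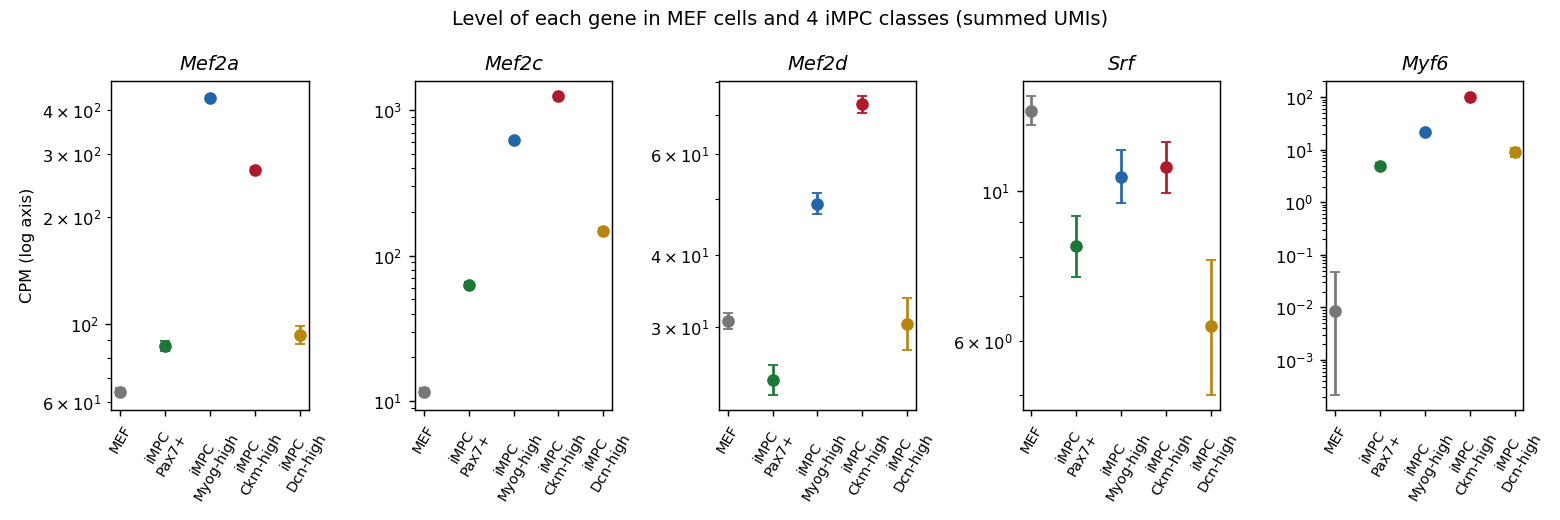
Level of each member in CPM of summed UMIs (logarithmic axis) in MEF and the 4 iMPC classes, with points for the levels and bars for 95% Poisson intervals. Mef2c and Myf6 were highest in Ckm-high cells, Mef2a was highest in Myog-high cells at 432 CPM, and Srf stayed between 6.33 and 13.2 CPM.

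Because 3′ UMI counts give 1 count per captured molecule with no length term, the shares of the 3 MEF2 genes among their own UMIs can be set side by side. Mef2a made up 60.3% of them in MEF, Mef2d 28.8% and Mef2c 10.9%. In Pax7-positive cells the shares were 49.7% Mef2a, 36.3% Mef2c and 14.0% Mef2d. Mef2c was the main MEF2 transcript in Myog-high cells at 56.6% and in Ckm-high cells at 78.3%, while Mef2d was 4.42% and 4.61% there. It also led in Dcn-high cells at 54.5%, with 34.3% Mef2a and 11.2% Mef2d, some of these cells being Ckm-high as well. In Dcn-high cells of no other class, Mef2c (77.7 CPM) and Mef2a (71.6 CPM) had overlapping intervals. The summed MEF2 level was 107 CPM in MEF, 174 in Pax7-positive, 1110 in Myog-high, 1585 in Ckm-high and 271 in Dcn-high cells.

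**Figure D2:**
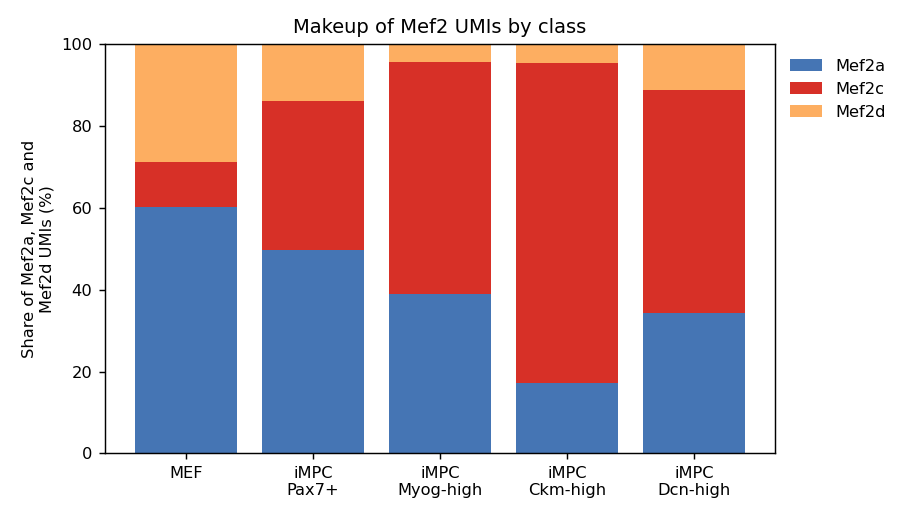
Share in percent of Mef2a, Mef2c and Mef2d among their summed UMIs in MEF and each iMPC class. The Mef2c part grew from 10.9% in MEF to 78.3% in Ckm-high cells as the Mef2a part shrank from 60.3% to 17.1%.

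Srf did not follow the MEF2 genes. It was 13.2 CPM in MEF, 8.29 in Pax7-positive, 10.5 in Myog-high, 10.9 in Ckm-high and 6.33 in Dcn-high cells. MEF were highest, and intervals overlapped between Ckm-high and Myog-high cells and between Pax7-positive and Dcn-high cells. The thinned share of cells with a Srf UMI was 5.83% in MEF and 2.35% to 5.01% in the iMPC classes, and the unthinned shares ran from 12.1% to 35.8%, with the highest in the deep Ckm-high cells.

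Myf6 was close to absent from MEF and highest in Ckm-high cells. MEF gave 1 UMI in 6043 cells (0.00847 CPM), and the level was 4.98 CPM in Pax7-positive, 21.3 in Myog-high, 103 in Ckm-high and 8.95 in Dcn-high cells. Neighbours in the order of levels were separated beyond counting error, although the place of the Dcn-high class rests on cells that were also Ckm-high, as given below. After thinning no MEF cell of 5759 had a UMI, which allows a share of up to 0.0521% by a limit of 3 counts and up to 0.0640% by the exact interval. The thinned share was 1.93% (1.39% to 2.60%) in Pax7-positive cells and 1.27% (0.510% to 2.59%) in Dcn-high cells, at median depths of 18729.5 and 18064 UMIs. These intervals overlap, and most Myf6 UMIs of the Dcn-high class lay in cells that were Ckm-high as well, so that class is no clean background. In cells of 1 class only, Myf6 was at 5.25 CPM (4.58 to 5.99) in Pax7-positive and 1.48 CPM (0.766 to 2.59) in Dcn-high cells. It was 5.34% in Myog-high and 26.8% in Ckm-high cells, and the unthinned shares were 6.51%, 3.80%, 14.7% and 54.6% for Pax7-positive, Dcn-high, Myog-high and Ckm-high cells.

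Barcodes of 200 to 600 UMIs (48846 in the iMPC library) served as an estimate of RNA outside cells, although what they hold was not tested. Their median was 2.06% of the median UMIs of kept cells. If their profile were added to every cell at that size, it alone would give a UMI at 5000 UMIs in 6.37% of cells for Mef2c, 1.24% for Mef2a, 0.490% for Mef2d, 0.0965% for Srf and 0.470% for Myf6. The measured thinned shares of all 5 members were above these values in every iMPC class. For Myf6 in Dcn-high cells the share rested on 7 cells of 553 (1.27%, 0.510% to 2.59%). Most Myf6 UMIs of that class lay in cells that were Ckm-high as well. With this profile subtracted from the iMPC sets, the log2 ratio of Mef2c in Pax7-positive cells against MEF was 2.13 in place of 2.44. In Myog-high against Pax7-positive cells, Mef2c was at 3.63 in place of 3.32 and Myf6 at 2.34 in place of 2.10. The size of the estimate depends on the chosen range of UMIs, and beyond this subtraction the part of RNA outside cells in the levels was not tested.

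The UMIs of the members were spread unevenly over the iMPC. Ckm-high cells made up 11.1% of the iMPC and 20.9% of their UMIs, and held 66.8% of Myf6, 51.6% of Mef2c, 35.8% of Mef2d, 26.0% of Mef2a and 23.3% of Srf UMIs. Myog-high cells, at 19.9% of the UMIs, held 39.4% of Mef2a UMIs. Cells in no class stood between Pax7-positive and Myog-high cells for Mef2a (154 CPM), Mef2c (284 CPM), Mef2d (32.8 CPM) and Myf6 (14.8 CPM).

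Against MEF, Pax7-positive cells had 2 members at least 2-fold higher, Mef2c and Myf6, and none at least 2-fold lower. All 5 members passed the minimum of 1 CPM on the mean of the 5 sets, and of the 12374 genes that did, 18.8% were at least 2-fold higher and 19.0% at least 2-fold lower. The log2 ratio of Mef2c was 2.44 (2.35 to 2.54). That of Myf6 was 9.20 with a wide interval of 6.71 to 14.51, as MEF gave 1 UMI. The other ratios were 0.43 for Mef2a, -0.34 for Mef2d and -0.67 for Srf, all with intervals that left out 0.

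Myog-high cells had 4 members at least 2-fold higher than Pax7-positive cells, all but Srf, where 7.77% of all genes were higher and 16.0% lower by that much. The log2 ratios were 3.32 for Mef2c, 2.32 for Mef2a, 2.10 for Myf6, 1.02 for Mef2d (0.91 to 1.12) and 0.34 for Srf (0.14 to 0.54). Mef2d thus sat at the 2-fold line, and was under it with CPM averaged over cells (0.96), without mitochondrial and ribosomal genes (0.998) and at 10% mitochondrial UMIs (0.995). When the sets are scaled to a shared median gene ratio and not to their totals, this moves all log2 ratios of this comparison by 0.18, those of Ckm-high against Myog-high cells by 0.37 and those of all iMPC against MEF by 0.12.

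Between Ckm-high and Myog-high cells, Myf6 was the only member at least 2-fold higher and none was 2-fold lower, against 6.45% and 18.2% of all genes. Its log2 ratio was 2.27 (2.17 to 2.37). Mef2c stood just under the line at 0.98 (0.96 to 1.0), and at 0.51 when the classes were set on thinned counts. Mef2d was at 0.57. Mef2a was lower at -0.67 (-0.71 to -0.64), and Srf had a ratio of 0.05 whose interval of -0.13 to 0.23 included 0. With that scaling, Mef2c was at 1.35 and joined Myf6 past 2-fold, Srf was at 0.42, and Mef2a kept its direction at -0.30.

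Against MEF, all kept iMPC together had 3 members at least 2-fold higher, Mef2a, Mef2c and Myf6, and none lower, where 18.1% and 20.8% of all genes were past that fold. The log2 ratios were 1.76 for Mef2a, 5.44 for Mef2c, 11.89 for Myf6, 0.47 for Mef2d and -0.43 for Srf. The comparisons with MEF share these cells, and those with Pax7-positive or Myog-high cells share those sets, so they are not independent of each other.

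**Figure D3:**
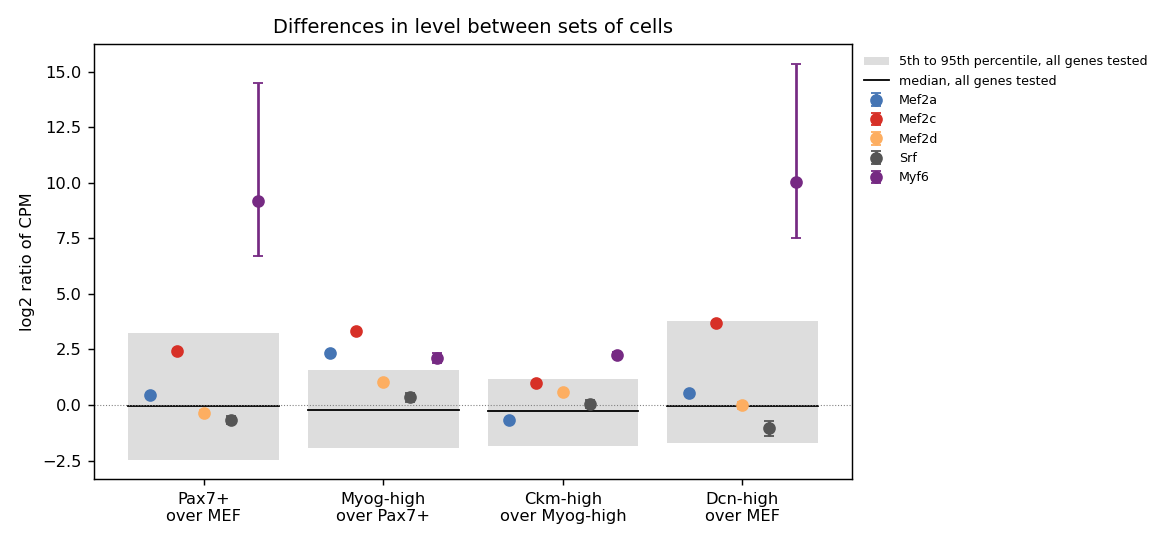
Log2 ratio of CPM for each member in 4 comparisons of sets, with points for ratios, bars for 95% counting intervals, grey bands for the range from the 5th to the 95th percentile of all 12374 genes and black lines for their median. Mef2c was above 0 in each comparison shown, at 2.44, 3.32, 0.98 and 3.67, while Mef2a changed sign between Myog-high over Pax7-positive (2.32) and Ckm-high over Myog-high (-0.67).

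The Dcn-high class has to be read with its overlaps. Against MEF, 2 members were at least 2-fold higher, Mef2c at a log2 ratio of 3.67 and Myf6 at 10.05 (7.54 to 15.36), and Srf was lower at -1.06 (-0.98 without mitochondrial and ribosomal genes, under 2-fold), beside 17.3% and 13.0% of all genes. Against Pax7-positive cells only Mef2c was past 2-fold (1.23), beside 14.0% of genes higher and 7.07% lower. With cells of 1 class only, the ratios to MEF were 2.74 for Mef2c and 7.45 for Myf6, and without Scrublet doublets 2.63 and 8.93. Of the 109 Myf6 UMIs of the class, 96 (88.1%) lay in the 18 cells that were Ckm-high as well, and so did 1006 of its 1798 Mef2c UMIs (56.0%). The median of these 18 cells was 64083.5 UMIs. In the 407 Dcn-high cells of no other class, Mef2c was at 77.7 CPM, Mef2a at 71.6, Mef2d at 27.7, Srf at 5.93 and Myf6 at 1.48 (0.766 to 2.59, from 12 UMIs). Whether these shared cells are doublets was not tested. Of the 9349 iMPC, 337 (3.60%) were called doublets by Scrublet, and without them the Mef2c ratio of Dcn-high to Pax7-positive cells was 0.17. No direction is given for Mef2a or Myf6 between these classes, since their ratios changed sign with the setting.

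Within the Ckm-high class, Myf6 differed most of the members between the highest and the lowest quartile of Ckm. Most of its rise lay in the highest quartile, and it changed little over the first 3, where Ckm itself went from 132 to 422.5 CPM. From the lowest to the highest quartile of Ckm per UMI it stood at 71.6, 81.1, 86.7 and 181 CPM, with a log2 ratio of the highest to the lowest quartile of 1.34 (1.23 to 1.45). Mef2c was at 1208, 1212, 1261 and 1295 CPM, and Mef2d at 67.7, 73.9, 74.9 and 77.8. Both rose little beside Myf6, which alone passed 2-fold, as 2.42% of all genes did upward and 6.39% downward. Mef2a had 259, 321, 285 and 225 CPM, lowest in the highest quartile, and Srf had 9.16, 10.6, 11.4 and 12.8 CPM. Ckm chose the class and the quartiles, and median depth differed from 51713.5 UMIs in the lowest to 37163 in the third quartile and 42101 in the highest.

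**Figure D4:**
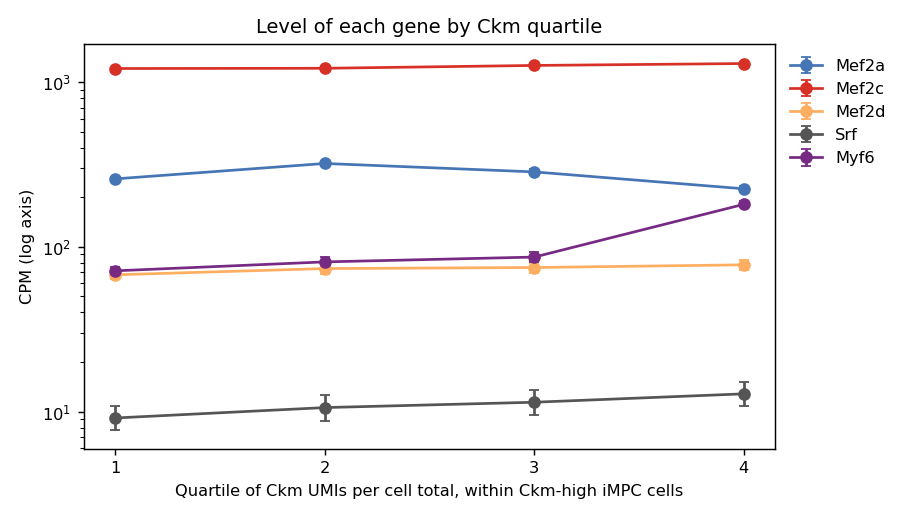
CPM of each member (logarithmic axis) in the 4 quartiles of Ckm per UMI within Ckm-high cells, with 95% Poisson intervals. Myf6 stood at 181 CPM in the highest quartile against 71.6 in the lowest, while Mef2c stayed between 1208 and 1295.

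Splitting the Ckm-high cells by Myh4, an adult fast myosin gene, gave the same order for Myf6. It was 129 CPM in the 651 cells with a Myh4 UMI and 38.2 CPM in the 386 cells without, a log2 ratio of 1.76 (1.63 to 1.89). Mef2a went the other way, with 232 against 367 CPM (-0.66), and Mef2c was higher by 0.26. Of all genes, 5.85% were at least 2-fold higher and 4.70% lower. Cells with a Myh4 UMI were also deeper, at a median of 47574 against 32798 UMIs, and their part in these differences was not tested.

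In Pax7-positive cells, Myf6 was 6.46 CPM in the 1127 cells with a UMI of Mki67, a gene of cycling cells, and 2.70 CPM in the 1053 without, a log2 ratio of 1.26 (0.79 to 1.76) on 172 and 47 UMIs. Srf had 9.62 against 6.27 CPM (0.62), and Mef2a had 86.2 and 86.7 CPM (-0.01, -0.10 to 0.09). Mef2c (-0.14, -0.25 to -0.03) and Mef2d (-0.18, -0.36 to -0.003) were slightly lower in the cells with a Mki67 UMI. The share of all genes at least 2-fold higher was 4.74%, and that lower 7.37%. Cells with a Mki67 UMI had a median of 22221 UMIs and the others 15673, and that part was not tested. By Myod1, the 725 cells with 2 or more UMIs exceeded the 1017 without by 0.34 for Mef2a and 0.43 for Mef2c. Myf6, Srf and Mef2d had intervals that included 0 there, and no member passed 2-fold, as 0.921% of genes did upward and 4.95% downward.

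At a common depth, counts of Myf6, Mef2a and Mef2c varied more among cells than they would if every cell had the same mean. In Ckm-high cells Myf6 gave 4.82 UMIs per cell and Mef2d 3.43, yet the unthinned share was 54.6% for Myf6 and 89.7% for Mef2d. After thinning, 26.8% of cells had Myf6 where 35.6% would if every cell had the same mean, and 30.0% had Mef2d where 31.2% would. For Mef2a 67.3% of cells had a UMI where 77.3% would. The variance of thinned counts over their mean is higher for a more uneven spread, but also for a higher mean. It was 1.84 for Myf6 in these cells, 1.86 for Mef2a, 1.78 for Mef2c and 1.09 for Mef2d. In Myog-high cells it was 1.44 for Myf6, 1.79 for Mef2a and 4.08 for Mef2c. The thinned means in Ckm-high cells were 0.441 UMIs for Myf6, 1.48 for Mef2a, 6.22 for Mef2c and 0.374 for Mef2d. These ratios therefore do not rank the genes by unevenness. In unthinned counts, which also vary with depth, the 10% of Ckm-high cells with the most Myf6 UMIs held 52.1% of them. The corresponding shares were 29.8% for Mef2d, 28.1% for Mef2a and 24.2% for Mef2c. In Myog-high cells the corresponding 10% of cells held 91.8% of unthinned Myf6 UMIs. Only 14.7% of Myog-high cells had any Myf6 UMI, which by itself makes such a share high.

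Mef2c and Myf6 met in the same thinned iMPC cell 450 times, where their shares alone would give 250.4 (log2 odds ratio 2.49), over cells of all classes. Within classes the counts were 83 against 67.5 in Myog-high, 276 against 273.4 in Ckm-high, 8 against 9.52 in Pax7-positive and 4 against 1.35 in Dcn-high cells. As 98.4% of thinned Ckm-high cells had Mef2c, the count there could hardly differ from the one given by the shares. For Mef2a and Myf6 the counts were 331 against 274.5 over all iMPC, 15 against 13.8 in Pax7-positive, 64 against 75.8 in Myog-high, 170 against 187.1 in Ckm-high and 3 against 2.09 in Dcn-high cells. These counts are a description of sparse data, with no test. Among thinned cells, 58.6% of MEF had no member detected, 42.9% of Pax7-positive, 4.18% of Myog-high and 0.482% of Ckm-high cells.

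The genes whose profile over the 5 sets came closest to each member, by Euclidean distance of centred log2(CPM + 1) values among 11675 genes, were these. For Mef2c they were Smyd1 (0.25), Afap1l1 and Sntb1, for Myf6 they were Pygm (0.37), Lmcd1 and Klhl30, and for Mef2d they were Rnf141 (0.11), Mttp and Fn3krp. Srf was nearest to Cdc37l1 (0.12), H2-Ke6 and Glrx5. Mef2a was nearest to Cxcl13 (0.32), Art3 and Rasgef1b, genes of far lower level, at most 5.26 CPM. Among the members themselves, Mef2c and Myf6 were closest (1.11), then Mef2d and Srf (1.18). The 5 points are sets of 2 libraries.

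Of 22 MEF2 target genes of muscle over the minimum, 21 were at least 2-fold higher in Pax7-positive cells than in MEF, 19 in Myog-high than in Pax7-positive cells and 16 in Ckm-high than in Myog-high cells, and none was lower. Genes with no UMI in MEF were set to a floor of 3 counts for these ratios. Median log2 ratios were 5.39, 3.53 and 1.60, where all genes had -0.04, -0.21 and -0.29. The rise over MEF was not limited to Pax7-positive cells. In Dcn-high cells, 18 of which were Ckm-high as well, all 22 targets were at least 2-fold higher than in MEF. Their median log2 ratio was 7.71 there. Smyd1, a muscle methyltransferase, was at 0.00847, 5.02, 57.3 and 97.6 CPM in MEF, Pax7-positive, Myog-high and Ckm-high cells. Myoz2, a Z-disc protein, was at 0.00847, 6.84, 126 and 421 CPM. The list was chosen with earlier results of these data known, and it holds contractile genes that also mark the classes. Myocyte RNA was also found in the iMPC barcodes that served as an estimate of RNA outside cells. Ckm was at 181.5 CPM in them and at 5.2 CPM in Pax7-positive cells. The part of such RNA in the target counts was not tested.

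The MEF2 cofactors were counted in the same comparisons, and Hdac9 belonged to both lists. Of 17 cofactors, 4 were at least 2-fold higher and 2 lower in Pax7-positive cells than in MEF, 1 and 1 in Myog-high against Pax7-positive cells, and 2 and 3 in Ckm-high against Myog-high cells. As shares of all genes, 18.8% were higher and 19.0% lower in the first of these comparisons, 7.77% and 16.0% in the next, and 6.45% and 18.2% in the last, and nothing is read from counts this small. Under median-ratio scaling the last pair of counts became 4 higher and 1 lower. Mamstr, a MEF2 coactivator, was at 0.229 CPM in MEF and 26.3, 41.1 and 42.3 in Pax7-positive, Myog-high and Ckm-high cells. Hdac7, a class IIa deacetylase that represses MEF2, was at 33.9, 26.4, 6.60 and 2.38 CPM. Its relative Hdac9 was at 0.296, 1.11, 1.73 and 6.58 CPM.

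The SRF cofactors and targets were compared between Pax7-positive cells and MEF, where 18.8% of all genes were at least 2-fold higher and 19.0% lower. Of 7 SRF cofactors over the minimum, 3 were at least 2-fold lower in Pax7-positive cells than in MEF and none higher, among them Mrtfa, an actin-sensing coactivator (15.2 CPM in MEF and 4.48 in Pax7-positive cells). Of 16 SRF targets of muscle and the cytoskeleton, 13 were lower and 2 higher. Smooth muscle and pericyte markers, which share Acta2 and Cnn1 with this list, summed to 6294 CPM in MEF and 364 CPM in Pax7-positive cells. These sums came mostly from Acta2, so they are not separate from the target list. Of the 7 markers, 4 were at least 2-fold lower in Pax7-positive cells and 3 higher, which were Rgs5, Kcnj8 and Abcc9. The part of such cells in the counts was not tested. Tagln, a smooth muscle actin-binding protein, was at 3600 CPM in MEF and 90.9 in Pax7-positive cells, and Acta2 at 6108 and 308. The 2 higher genes were Acta1 and Actc1, the skeletal and cardiac actins. Acta1 was at 93.1 CPM in MEF and 239 in Pax7-positive cells, and went on to 3733 CPM in Myog-high and 14320 CPM in Ckm-high cells. The part of RNA outside cells in the Pax7-positive levels of these 2 genes was not tested. Of 9 SRF immediate early targets, 6 were higher and 2 lower, Egr1 being at 45.6 CPM in MEF and 187 in Pax7-positive cells.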

How the data were processed

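The authors deposited UMI counts per gene and cell barcode for 1 MEF and 1 iMPC library, which are raw counts as far as their whole-number values show. Cell Ranger 4.0, Seurat 3.2.3 and GRCm38.p6 are named in the submitters' processing notes, and the annotation release is not given in the sources used here. The MEF table lists 6113 barcodes with at least 503 UMIs. The iMPC table lists 6794880 barcodes, of which those at 8036 UMIs (10% of the 99th percentile of the top 10000) were taken as cells. The MEF label also carries the iMPC treatment protocol, and its own treatment entry was used.

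UMIs were summed per set and given as CPM with exact Poisson intervals. Log2 ratios have exact conditional intervals, shares have exact Clopper-Pearson intervals, and a sum of 0 was set to a floor of 3 counts. For shares of cells, each cell was thinned to 5000 UMIs. No test was made. Genes at a mean of at least 1 CPM over the 5 sets form the background. The scripts ran under scanpy 1.11.5, scipy 1.17.1, numpy 2.4.6 and pandas 2.3.3, on Python 3.11.15. The ratio script was tested on simulated data.

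The named genes are the 5 members, the genes that define the classes, list genes as examples, and for each member the 3 genes nearest in profile. Members and lists were chosen with earlier results of these data known. Alternatives varied the scaling, the cell filters, doublets, free RNA, class thresholds, the fold and the thinning depth.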

Additional observations from a re-analysis of the deposited data

Results flagged for a closer look

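Barcodes of 200 to 600 UMIs in the iMPC library held UMIs of all 5 members above the 3-count limit. They were used only as an estimate of RNA outside cells and were not a set in any comparison of levels. The level there was 121 CPM for Mef2a, 638 CPM for Mef2c, 47.7 CPM for Mef2d, 9.36 CPM for Srf and 45.6 CPM for Myf6. These barcodes had a median of 430 UMIs. The MEF table lists no barcode under 503 UMIs, so the same range was not compared there. The source of these UMIs was not tested.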

How the results depend on the processing

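Under the alternatives, 120 counts of members past 2-fold kept their value within 1.5 times, and 12 did not. Such counts are small and change seldom. Of the other values followed, among them log2 ratios and shares of cells, 391 were held as the same, 171 as moved and 8 as reversed. Among the 120 counts, Myog-high against Pax7-positive cells gave 3 higher in place of 4, with Mef2d under 2-fold. This was so with CPM averaged over cells, without mitochondrial and ribosomal genes and at 10% mitochondrial UMIs. At 1.5-fold, 1 member was lower in Pax7-positive cells than in MEF, 2 were higher and 1 lower in Ckm-high than in Myog-high cells, and 2 were higher in Dcn-high than in Pax7-positive cells. Ckm-high against Myog-high cells also gave 2 higher with median-ratio scaling and with CPM averaged over cells. Dcn-high against MEF gave 0 lower without mitochondrial and ribosomal genes. Dcn-high against Pax7-positive cells gave 0 higher with CPM averaged over cells, with cells of 1 class only, without Scrublet doublets and with classes from thinned counts, and 1 lower with cells of 1 class only. In that comparison ratios changed sign for Mef2a at -0.15 (averaged over cells), -0.007 (no mitochondrial and ribosomal genes), -0.29 (1 class only), -0.32 (no doublets) and -0.38 (thinned classes), and for Myf6 at -0.083 (averaged over cells), -1.82 (1 class only) and -0.20 (no doublets). Near 0, Srf in Ckm-high against Myog-high cells went from 0.05 to -0.06 without mitochondrial and ribosomal genes, and Mef2d in Dcn-high cells against MEF from -0.02 to 0.07 there and to 0.03 with median-ratio scaling. The cause was not tested. Mef2c in Dcn-high against Pax7-positive cells ran from 0.17 to 1.43. No paired analysis was possible because each group has 1 library, and leaving out a replicate was not possible for the same reason. Depth limits Myf6 in MEF (1 UMI) and in Dcn-high cells of no other class (12 UMIs).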
